A study of Mus musculus with 1 sample.

Results

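The adrenal cortex cells described here carried the transcripts of steroid synthesis but almost no *Cyp11b1*, the enzyme that completes corticosterone synthesis in the zona fasciculata. They were found in 1 single-cell RNA library of wild-type mouse adrenal medulla at postnatal day (P) 15. The 10 adrenals of 5 mixed-sex mice were pooled and most of the cortex was dissected away by hand, so the cortex cells are those that stayed attached, and their shares are not those of the gland. No treatment was given, and with 1 library of pooled animals there were no replicates and no test between samples.

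A cell was taken when it had 500 to 5000 genes and at most 20% of its unique molecular identifiers (UMIs, each counting 1 captured transcript) from mitochondrial genes. It needed a UMI of at least 5 of the 9 genes *Star*, *Nr5a1*, *Cyp11a1*, *Hsd3b1*, *Cyp11b1*, *Cyp21a1*, *Mc2r*, *Fdx1* and *Scarb1*. *Cyp11b1* had to be under 0.03% of its UMIs, and *Wnt4*, a gene of the outer cortex, had to be absent. Cells with 4 or more of 7 chromaffin genes, 4 or more of 7 endothelial genes or 3 or more of 6 cell cycle genes were left out. This gave 1471 of 10139 cells, or 14.5% (exact 95% Clopper-Pearson interval 13.8 to 15.2%). They were compared with the 783 cortex cells that met the same gates with *Cyp11b1* at or above 0.03% (Cyp11b1-high) and with 631 cortex cells with a *Wnt4* UMI (Wnt4-positive). The members were thus chosen by their own UMIs of the genes named here, so every difference between the groups is a description. All intervals in the text are exact 95% intervals and cover counting error only.

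The mouse adrenal cortex is layered: the outer zona glomerulosa makes aldosterone, the zona fasciculata makes corticosterone, and in young mice an inner layer of fetal origin, the X-zone, lies against the medulla. The X-zone regresses at puberty in males and in the first pregnancy in females. It is recognised by *Akr1c18*, which encodes a 20α-hydroxysteroid dehydrogenase that inactivates progesterone, and by *Pik3c2g*, a class II phosphoinositide 3-kinase, and its cells respond to thyroid hormone through the receptor encoded by *Thrb*.

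The members were deeper than Cyp11b1-high and close to Wnt4-positive cells. Their median was 5330 UMIs and 2079 genes (716 to 26917 UMIs), against 4792 UMIs in Cyp11b1-high and 5559 in Wnt4-positive cells. The gate was not equally strict, since *Cyp11b1* counted among the 9 genes and every Cyp11b1-high cell had it. With at least 4 of the 9 genes, the members rose from 1471 to 1772 cells and Cyp11b1-high cells from 783 to 785. The part of the gate in the difference in depth was not tested. The median share of mitochondrial UMIs was 6.59% in the members, 10.5% in Cyp11b1-high and 8.03% in Wnt4-positive cells, and the part of this difference in the results was not tested. Together the members held 9677267 UMIs, so that 3 UMIs correspond to 0.31 CPM (UMIs of a gene per 1000000 UMIs of the group, the unit of every level below). Of the 1471 cells, 1400 had no *Cyp11b1* UMI, 68 had 1, and the other 3 had 2 or 3. In 291 members with 3333 UMIs or fewer, a single *Cyp11b1* UMI would have met the limit.

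3 of the 4 markers named for these cells were higher in them than in other cortex cells. *Akr1c18* was at 8431 CPM in the members (8373 to 8489), 485 in Cyp11b1-high cells (464 to 506) and 389 in Wnt4-positive cells. The ratio to Cyp11b1-high cells was 17.4 (16.6 to 18.2), and it was 9.27 when cells needed 1000 genes and at most 10% mitochondrial UMIs, a filter that left 327 Cyp11b1-high cells. *Pik3c2g* was at 673 CPM against 37.0 and 33.7, a ratio of 18.2 to Cyp11b1-high cells (15.5 to 21.4), and of 9.54 under that filter. *Thrb* was at 260 against 79.7 and 36.6, a ratio of 3.26 (2.91 to 3.66). *Nr5a1*, the transcription factor of all steroidogenic cells and part of the gate, was at 152 against 193 and 162. These markers were named with earlier results of these data known. Their levels therefore describe the label of inner cortex or X-zone cells and lend it no support. The levels were also uneven within the members. In sub-cluster 3 (227 cells, described below), *Akr1c18* was at 1662 CPM and *Pik3c2g* at 50.5, near the 37.0 of Cyp11b1-high cells. The place of a cell in the gland was not measured. In GRCm38 these genes lie at chr13:4132615-4150646 (*Akr1c18*), chr6:139614072-139969284 (*Pik3c2g*), chr14:17659225-18040097 (*Thrb*) and chr2:38692656-38714542 (*Nr5a1*), and UMIs were counted per gene.

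An *Akr1c18* UMI was present in 93.6% of the members (92.2 to 94.8%), 21.2% of Cyp11b1-high and 16.5% of Wnt4-positive cells. Endothelial cells, which should lack the gene and had a median of 2306 UMIs, gave 11.3%, taken here as the background level. With every cell thinned to 2000 UMIs, which left out 53 members and 809 endothelial cells, 90.1% of members, 14.0% of Cyp11b1-high, 10.4% of Wnt4-positive and 8.44% of endothelial cells had one. Among the same thinned cells *Pik3c2g* was detected in 44.4% of members, 3.20% of Cyp11b1-high and 0.799% of endothelial cells, and *Thrb* in 37.0%, 12.4% and 2.22%.

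*Akr1c18* was graded among the members. It took a median of 0.57% of a cell's UMIs, from 0.0347% at the 10th to 1.91% at the 90th percentile, with a highest value of 5.00%. In Cyp11b1-high cells the median was 0 and the 90th percentile was 0.0411%. Near the limit the groups graded into each other: the 23 members with 0.02 to 0.03% *Cyp11b1* had 5690 CPM of *Akr1c18*, and the 47 Cyp11b1-high cells with 0.03 to 0.06% had 2246. The plot of both genes in single cells shows the 2 transcripts mostly in separate cells, with a scatter of cells holding both.

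**Figure D1:**
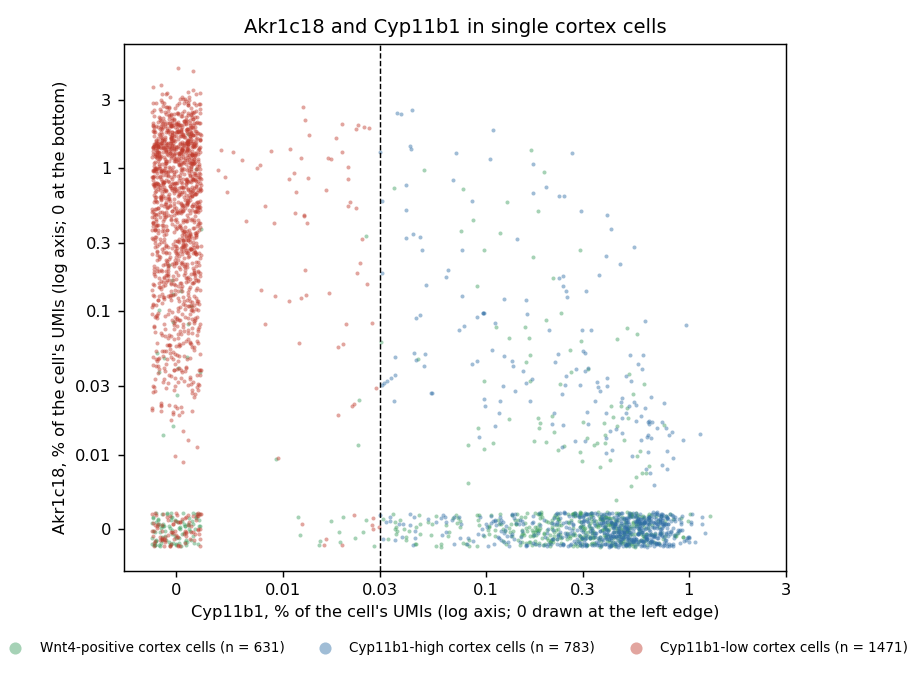
Each point is 1 cortex cell, with the share of its UMIs from *Cyp11b1* on the x axis and from *Akr1c18* on the y axis (% of UMIs, log axes, cells with 0 spread at the edge, dashed line at 0.03%, Cyp11b1-low red, Cyp11b1-high blue, Wnt4-positive green). Most of the 1471 Cyp11b1-low cells sit at 0 *Cyp11b1* with *Akr1c18* spread up to 5.00%, and most of the 783 Cyp11b1-high cells sit at 0 *Akr1c18*.

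Across the transcriptome, 7440 genes had a mean level of at least 10 CPM over the members and Cyp11b1-high cells. With 10 CPM added to both levels, 207 genes were at least 2-fold higher in the members (2.78%) and 262 at least 2-fold lower (3.52%). Against Wnt4-positive cells, 377 of 7616 genes were higher (4.95%) and 471 lower (6.18%). The median log2 ratio over all genes was -0.01 and -0.03. These shares are the background against which the gene lists below are set. A gene under 10 CPM in the members could enter only through the other group, where it had to be higher. In the same way, a gene under 10 CPM in the other group could enter only through the members. Such genes lend no support to counts of lower or higher genes, and their levels are a description.

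Genes of cholesterol synthesis were higher in the members, and apart from the markers named for these cells no list had a higher median. Steroidogenic cells build hormones from cholesterol, which they take up from lipoproteins or make from acetyl-CoA through the mevalonate pathway. Its enzymes are switched on together by the transcription factor encoded by *Srebf2* when sterols in the cell run low. Of 20 genes of this pathway, 17 were at least 2-fold higher in the members than in Cyp11b1-high cells and 18 than in Wnt4-positive cells, and none was 2-fold lower. The median log2 ratio was 1.90 and 1.86. The counts were also 17 and 18 without the 150 members that carried endothelial or immune genes (described below). Among the 18, *Sqle* was under 10 CPM in Wnt4-positive cells and entered that comparison only through the members.

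*Hmgcs1*, which encodes the enzyme that makes HMG-CoA, was at 714 CPM in the members, 165 in Cyp11b1-high and 126 in Wnt4-positive cells. Further down the pathway, *Idi1* (isopentenyl diphosphate isomerase) was at 391, 44.3 and 39.0. Both levels in the members lay above the other groups with intervals that did not overlap. *Fdps* (farnesyl diphosphate synthase) was at 1049, 138 and 95.05, a ratio of 7.61 (7.0 to 8.28). *Sqle* (squalene epoxidase) was at 123, 13.6 and 9.46, and *Cyp51* (lanosterol demethylase) at 265, 31.7 and 20.6. *Msmo1* (methylsterol monooxygenase) was at 565, 107 and 81.2. The smallest ratio in the list was that of *Dhcr7*, the last step of one branch, at 349 against 223 in Cyp11b1-high cells, or 1.57-fold (1.46 to 1.69). *Srebf2* itself was at 43.2 against 17.1, and *Insig1*, which holds the SREBP system in the endoplasmic reticulum, at 48.8 against 12.9.

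**Figure D2:**
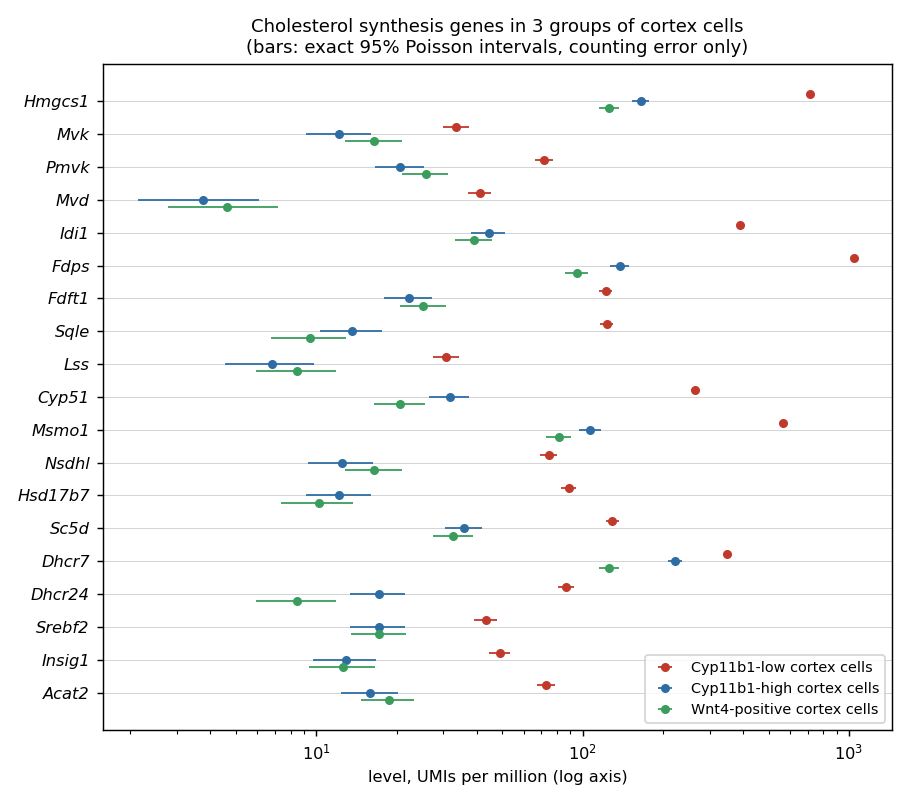
Levels of cholesterol synthesis genes (y axis) in CPM on a log x axis, in Cyp11b1-low (red), Cyp11b1-high (blue) and Wnt4-positive (green) cortex cells, with exact 95% Poisson intervals. The red point lies to the right of both others for every gene shown, closest for *Dhcr7* at 349 against 223.

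The starts of these genes are shown because the genes of the list were higher together. RefSeq promoters (GRCm38.p6, the same assembly as mm10, to which the reads were aligned) were at hand for 15 of the 20 genes, and the 250 bases before each start were searched on both strands for CCAAT, the box bound by NF-Y, and for TCACNCCAC, the core of a sterol regulatory element, neither of which contains the other. A gene counted when any of its annotated starts had a match, and the start used in these cells was not measured. By this count CCAAT was in 14 of the 15, against 37.5% of 27025 genes. *Dhcr7* and *Pmvk* among the 14 also had starts without the box. TCACNCCAC was in 1 of the 15, *Hmgcs1*, against 1.22% of all genes. A match is a description of the letters and not a binding site. Here are 3 of these stretches, 5′ to 3′ on the strand of the gene, with both motifs in capitals (ATTGG is CCAAT on the other strand). They lie at chr13:119690101-119690350 (+) for *Hmgcs1*, chr13:8885356-8885605 (+) for *Idi1* and chr8:64733579-64733828 (-) for *Msmo1*.
Hmgcs1: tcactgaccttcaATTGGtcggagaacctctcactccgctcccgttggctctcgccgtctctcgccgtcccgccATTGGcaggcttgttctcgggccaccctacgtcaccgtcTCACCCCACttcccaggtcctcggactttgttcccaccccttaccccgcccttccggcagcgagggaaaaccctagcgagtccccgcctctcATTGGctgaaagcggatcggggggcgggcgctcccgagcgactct
Idi1: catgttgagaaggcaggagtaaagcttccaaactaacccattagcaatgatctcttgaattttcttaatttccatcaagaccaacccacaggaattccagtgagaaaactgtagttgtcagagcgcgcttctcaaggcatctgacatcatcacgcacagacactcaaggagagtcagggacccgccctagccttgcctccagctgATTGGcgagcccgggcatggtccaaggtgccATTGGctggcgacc
Msmo1: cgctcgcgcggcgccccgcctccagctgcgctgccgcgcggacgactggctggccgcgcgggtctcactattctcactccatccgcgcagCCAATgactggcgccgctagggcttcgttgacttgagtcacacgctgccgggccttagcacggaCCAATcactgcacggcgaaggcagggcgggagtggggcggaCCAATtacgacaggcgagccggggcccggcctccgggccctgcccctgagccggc
In *Hmgcs1* the sterol element begins 137 bases before the start, with CCAAT boxes at 237, 176 and 45 bases. *Idi1* has boxes at 45 and 14 bases, and *Msmo1* at 160, 96 and 55 bases.

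Cholesterol uptake and storage split. Of 11 measured genes, 3 were higher against Cyp11b1-high cells and 1 was lower, with a median log2 ratio of 0.19. *Stard4*, a cytosolic sterol carrier and 1 of the 3, was at 113 CPM against 13.6 and 9.70, a ratio of 8.29 to Cyp11b1-high cells (6.36 to 11.0). *Scarb1*, the receptor for high density lipoprotein and part of the gate, was at 250 against 570 and 611. *Soat1*, which esterifies cholesterol for storage, was at 309 against 743 and 811, or 2.40-fold lower than in Cyp11b1-high cells (2.29 to 2.53). *Apoe*, another of the 3, which encodes a lipoprotein component, was at 537 against 148, and it reached 3235 in the 72 members with macrophage genes against 126 to 730 in the other sub-clusters described below.

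Genes of steroid synthesis that were part of the gate are given as a description, since the gate asked for a UMI of at least 5 of the 9. *Star*, which carries cholesterol into mitochondria, was at 7681 against 6868 and 4904, and *Fdx1*, the electron donor of the mitochondrial enzymes, at 3613 against 3837 and 3114. The levels of the enzymes that act next were as follows. *Cyp11a1*, the side-chain cleavage enzyme, was at 3110 against 5680 and 6349. *Hsd3b1*, which makes progesterone, was at 4122 against 9070 and 7965. *Cyp21a1*, which commits progesterone to corticosteroids, was at 2922 against 8621 and 5537, a ratio of 0.339 to Cyp11b1-high cells (0.334 to 0.344). *Cyp11b1*, held low by the rule, was at 7.85, and endothelial cells had 16.6. No UMI of the aldosterone synthase gene *Cyp11b2* was found in the members, while Wnt4-positive cells had 11.9 CPM, at least 38.3-fold more, with 3 UMIs over all members taken as the floor.

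Of 10 measured enzymes and carriers outside the gate, 4 were higher and 1 lower against Cyp11b1-high cells (2 lower without the 150 cells described below), *Akr1c18* among the 4. *Hsd17b7*, which also acts in cholesterol synthesis and was counted in that list too, was at 88.6 against 12.2. *Cyb5a*, cytochrome b5, was at 382 against 139 and 112. *Srd5a2*, a steroid 5α-reductase, was at 226 against 93.8 and 32.3, whereas its isoenzyme *Srd5a1* was at 15.6 against 40.6 and 52.1. The lower gene, *Akr1b7*, an aldose reductase-like enzyme of the fasciculata that ACTH induces, was at 233 against 1003 and 768.

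Levels of the ACTH receptor and of its partner are given as a description. *Mc2r*, the receptor, was at 8.37 CPM in the members against 519 and 575, 62.0-fold lower than in Cyp11b1-high cells (49.7 to 78.4), and endothelial cells had 3.36. *Mrap*, the accessory protein that brings the receptor to the surface, was at 1772 against 1050 and 463. *Mc2r* counted among the 9 gate genes and, under 10 CPM in the members, entered only through the other groups, while *Mrap* was not in the gate. Of 16 measured genes of ACTH and cAMP signalling, 4 were lower in the members than in Cyp11b1-high cells and none was higher, with a median log2 ratio of -0.04. *Prkar2b*, a regulatory subunit of protein kinase A, was at 96.0 against 253 and 240. The other 3 were *Akr1b7* and the cAMP-induced nuclear receptors *Nr4a1* (20.8 against 57.4) and *Nr4a2* (9.92 against 34.9), the last of which entered only through the other groups.

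Among 9 measured hormone receptors none passed 2-fold against Cyp11b1-high cells, and 1 of 9 was higher against Wnt4-positive cells. *Prlr*, the prolactin receptor, was at 424 against 847 and 602. *Nr3c1*, the glucocorticoid receptor, was at 39.2 against 16.2 and 17.0. Of 8 measured thyroid hormone genes other than *Thrb*, 1 was higher than in Cyp11b1-high cells. This was *Thrsp*, a lipogenic gene that thyroid hormone induces in liver, at 238 against 45.7 and 34.7. Against Wnt4-positive cells 2 of 7 were higher. *Thra*, the other receptor gene, was at 102 against 77.6. Of 8 measured PI3-kinase genes other than *Pik3c2g*, *Pik3r1*, a regulatory subunit, was higher at 259 against 79.3, and *Akt2* was lower at 40.6 against 101. The other 6, *Akt1* among them, had ratios under 2-fold.

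Several genes of both other cortex groups were far lower in the members. *Cdkn1c*, an imprinted inhibitor of the cell cycle, was at 20.2 against 1654 and 1309, 82.1-fold lower than in Cyp11b1-high cells (71.2 to 95.1). It was detected in 8.91% of members and in 87.1% and 87.8% of the other groups. *Aebp1*, a secreted matrix protein, was at 13.0 against 694 and 859. *Adora1*, an adenosine receptor, was at 1.14 (11 UMIs) against 142 and 168. *Tesc*, a calcium-binding protein, was at 6.10 against 368, *Tpm2*, a tropomyosin, at 2.69 against 195, and *Hao2*, a peroxisomal oxidase, at 47.8 against 684. Of these, *Adora1*, *Tesc* and *Tpm2* were under 10 CPM in the members and entered only through the other groups, so their levels are a description. *Inha*, the alpha subunit of inhibin, was at 10.8 against 164 and 204. *Fst*, which binds and blocks activin, was at 24.0 against 2.58 and 1.45, and entered only through the members.

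Of 14 genes of the outer cortex, 1 was above 10 CPM in the members. This was *Kcnk3*, a potassium channel, at 257 against 1340 and 1687. *Dab2*, an endocytic adaptor of the glomerulosa, was at 7.85 against 111 and 552, and *Agtr1a*, the angiotensin II receptor, at 7.65 against 45.9 and 117. Both entered the comparison with Cyp11b1-high cells only through their level there, and the other 11 did not enter it. Of 11 imprinted growth genes, 3 were above 10 CPM in the members: *Cdkn1c*, *Grb10*, an adaptor that restrains growth (27.4 against 33.5 and 73.7), and *Peg3* (17.2 against 18.5 and 21.1). *Meg3*, a maternally expressed noncoding RNA, was at 8.27 against 50.4 and 291, and *Ndn*, a paternally expressed growth suppressor, at 4.03 against 32.4 and 196, so that both entered through the other groups. None of 6 measured cortex transcription factors passed 2-fold against Cyp11b1-high cells, and 2 of 5 were lower against Wnt4-positive cells. These were *Cited2*, a coactivator that binds p300 and CBP (264 against 405 and 592), and the orphan nuclear receptor *Nr2f1* (11.99 against 18.99 and 39.3). *Nr0b1*, the orphan receptor known as DAX1, lay under the limit of 10 CPM, with 4 UMIs in all members (0.41 CPM) against 8.68 and 12.1.

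Of 12 immediate early and heat shock genes, which respond to dissociation as well as to signals in the tissue, 11 were at least 2-fold lower in the members than in Wnt4-positive cells, and 2 than in Cyp11b1-high cells, with a median log2 ratio of -1.80 and -0.53. Without the 150 members that carried endothelial or immune genes (described below), 11 and 3 were lower, with medians of -1.88 and -0.61. *Fos* was at 130 against 326 and 1191, *Jun* at 295 against 440 and 1088, and *Hspa1a*, a heat shock protein, at 37.8 against 57.4 and 152. Of 10 antioxidant genes only *Nnt*, the mitochondrial transhydrogenase, passed 2-fold, at 1.55 against 23.7 and 39.0, and it entered only through the other groups. *Sod1*, the cytosolic superoxide dismutase, was at 761 against 501 and 411. None of 9 measured apoptosis genes passed 2-fold, and *Bax*, which drives mitochondrial cell death, was at 99.9 against 156 and 133.

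**Figure D3:**
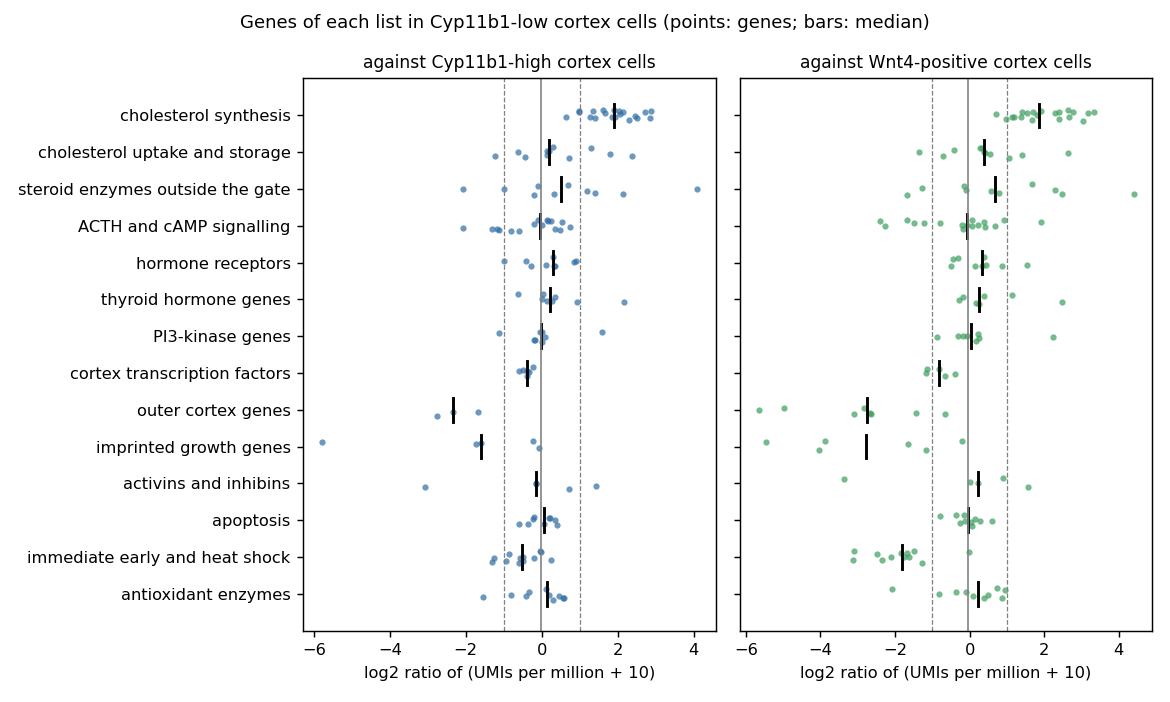
Each point is a measured gene of a list (rows), at the log2 ratio of its level in Cyp11b1-low cells to that in Cyp11b1-high (left) or Wnt4-positive cells (right), 10 CPM added, with black bars at list medians, dashed lines at 2-fold and a grey line at the median of all genes. The marker and gate lists are not drawn. Of the lists drawn, cholesterol synthesis lies furthest right by its median (1.90 and 1.86). Genes under 10 CPM in the Cyp11b1-low cells could appear only on the left, and genes under 10 CPM in the other group only on the right.

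The genes with the largest ratios to Cyp11b1-high cells were *Akr1c18*, *Pik3c2g*, *Apoc1*, *Ankrd55*, *Fetub*, *Kcnk2*, *Crip2*, *Idi1*, *Spp1*, *Fdps*, *C3* and *Emb*. *Apoc1*, an apolipoprotein, was at 9191 against 644 and 702, a ratio of 14.3 (13.7 to 14.8), and was detected in 90.1% of members. *Ankrd55*, an ankyrin repeat protein, was at 756 against 52.0 and 57.5. *Fetub* (fetuin B) and *C3* (complement component 3), best known as secreted products of the liver, were at 256 against 18.0 and at 395 against 48.5. *Kcnk2*, a potassium channel of the same family as *Kcnk3*, was at 248 against 21.3. Against Wnt4-positive cells the 12 highest also took in *Nrep* (1641 against 117) and *Cst8*, a cystatin (750 against 59.9). *Abcb1b*, a drug and steroid efflux pump, was at 3746 against 1155 and 531. The 12 lowest ratios to Cyp11b1-high cells were those of *Cyp11b1*, *Cdkn1c*, *Aebp1*, *Mc2r*, *Tesc*, *Tpm2*, *Adora1*, *Hao2*, *Acsbg1*, *Cryba4*, *Frzb* and *Klhdc8a*. *Frzb*, a secreted Wnt inhibitor, was at 20.7 against 297 and 207. Against Wnt4-positive cells the 12 lowest took in *Wnt4* by the rule, *Ly6d* (22.3 against 2397), *Ecrg4* (3.41 against 816), *Dab2*, *Cpe* and *Peg10*. Genes of both lists under 10 CPM in the members, such as *Mc2r* and *Ecrg4*, entered only through the other group.

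Clustering of the 1471 members alone gave 6 sub-clusters, here numbered and not named, since their leading genes come from the same cells that were clustered. Sub-clusters 1 and 2, with 443 and 441 cells, had the most *Akr1c18*, at 10855 and 10903 CPM. Sub-cluster 2 was led by *Spp1* (osteopontin), *Emb*, *Pik3c2g*, *1810064F22Rik* and *Cyp11a1*. It had the highest *Pik3c2g* (1019), *Cyp11a1* (4570) and *Idi1* (564) of the 6 and the lowest *Cyp21a1* (1562). Sub-cluster 1 was shallower, with a median of 3850 UMIs against 7395, and was led by *Hbb-bs*, *Pnmt*, *Ren1*, *Sco2* and *Lsm7*. *Hbb-bs*, a haemoglobin gene of red cells, was at 3462 CPM there in 15.1% of cells, and *Pnmt*, the adrenaline-forming enzyme of chromaffin cells, at 49.7.

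Sub-clusters 3 and 4 had less *Akr1c18* and more *Cyp21a1*. Sub-cluster 3, with 227 cells, was led by *Igfbp7*, *Tmem176a*, *Lockd*, *Cdkn1c* and *Cenpf*. Its *Akr1c18* was at 1662 CPM in 70.5% of cells, its *Pik3c2g* at 50.5, and its *Cyp21a1* at 5510. *Mc2r* (44.0), *Cdkn1c* (98.8) and *Aebp1* (66.6) were the highest of the 6, though far below the levels in Cyp11b1-high cells. Sub-cluster 4, with 210 deep cells (median 8594 UMIs), was led by *Agt*, *Hamp*, *Thrsp*, *Akr1d1* and *Map7d2*. *Agt* (angiotensinogen), *Hamp* (hepcidin) and *Akr1d1* (a steroid 5β-reductase) are best known from liver. *Hamp* had a UMI in 11.4% of the cells of sub-cluster 4, *Map7d2* in 23.8% and *Agt* in 28.6%, against 77.1% for *Thrsp* and 93.3% for *Akr1d1*. This sub-cluster had the highest *Apoc1* (12818), *C3* (683) and *Thrb* (353), and the lowest *Cyp11a1* (808) and *Hbb-bs* (23.1). Sub-clusters 2 and 4 were the deepest of the 6 and lay at opposite ends of the *Cyp11a1* range.

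Sub-clusters 5 and 6 carried genes of other cell types. Sub-cluster 5, with 78 cells, was led by *Fabp4*, *Gpihbp1*, *Emcn*, *Ifitm3* and *Rgcc* of endothelial cells, and all 7 endothelial genes of the gate reached 10 CPM there (summed level 624, with *Emcn* the highest at 177) against 6891 in endothelial cells. In sub-clusters 1 to 4 their sum was 8.02 to 19.3. Sub-cluster 5 also had the highest sums of the 6 for chromaffin genes (365, against 67.6 to 216), sustentacular genes (133, against 6.01 to 14.0) and fibroblast and capsule genes (147, with 43 of the members' 56 UMIs). Sub-cluster 6, with 72 cells, was led by *C1qa*, *C1qb*, *Lyz2*, *Cd74* and *C1qc* of macrophages, and held 1409 of the 1509 UMIs of the 8 immune genes in the members, with *C1qa* the highest at 589. Scrublet called 21.8% and 29.2% of these cells doublets, against 0 to 1.76% in the other 4. Both retained *Akr1c18*, at 8530 and 6712. Without these 150 cells the ratio of *Akr1c18* to Cyp11b1-high cells was 17.6, and 207 genes being 2-fold higher became 208. In the members as a whole the 7 chromaffin genes summed to 103 CPM (*Chgb* the highest at 55.8), against 163 in endothelial and 70388 in chromaffin cells. The 7 sustentacular genes summed to 12.1, and the 9 fibroblast and capsule genes to 5.79 with 3 of them at 0. The 5 red cell genes summed to 2221, against 1690 in endothelial cells. The part of these genes in the differences between sub-clusters was not tested.

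**Figure D4:**
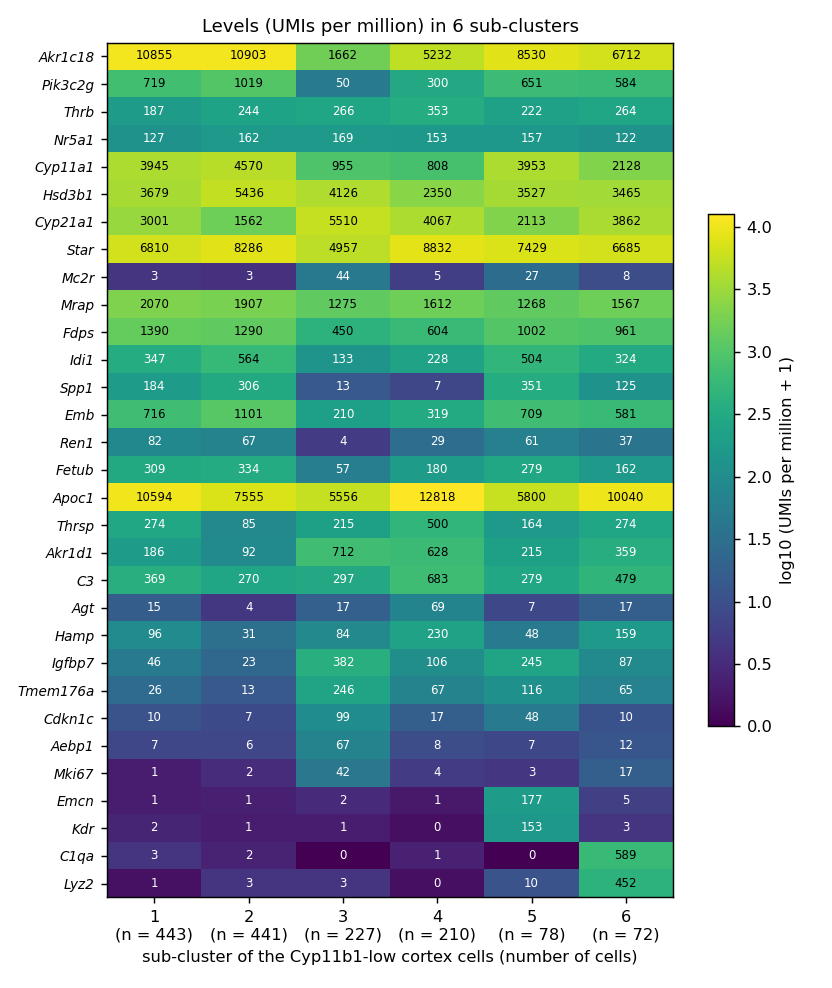
Levels in CPM (numbers) of chosen genes (rows) in the 6 sub-clusters of Cyp11b1-low cells (columns, with cell numbers), coloured by log10 of the level plus 1. *Akr1c18* falls from 10903 in sub-cluster 2 to 1662 in sub-cluster 3, and the endothelial and macrophage genes at the bottom stand out in sub-clusters 5 and 6.

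Members without an *Akr1c18* UMI after thinning to equal depth were compared with the rest. Of 1418 members thinned to 2000 UMIs, 1277 had an *Akr1c18* UMI and 141 had none. With all UMIs 93.6% of the members had one, so some of the 141 lacked it only after thinning. The split also overlaps the sub-clusters. *Akr1c18* was found in 70.5% of sub-cluster 3, which *Igfbp7*, *Tmem176a* and *Cdkn1c* helped to lead, and in 92.3% or more of each other sub-cluster. *Pik3c2g* was at 686 CPM in the cells with it and 67.4 in those without. *Cyp11a1* was at 3294 against 1209, *Akr1b7* at 257 against 49.6 and *Spp1* at 174 against 14.2. *Ren1* (renin) was at 62.3, and its 159 UMIs all fell in cells with *Akr1c18*. *Fdps* was at 1120 against 574. In the other direction *Cyp21a1* was at 2966 with *Akr1c18* and 5532 without, *Igfbp7* at 77.5 and 358, *Tmem176a* at 48.9 and 277, *Cdkn1c* at 18.0 and 103, and *Fos* at 110 and 426. *Thrb* (242 and 287, ratio 0.844, 0.668 to 1.08) and *Nr5a1* (150 and 152, ratio 0.983, 0.716 to 1.38) had intervals that included no difference.

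The pooled mice were of both sexes, and cells were assigned by *Xist*, transcribed from the inactive X chromosome, and by 4 Y-linked genes. Of the members, 261 had *Xist* UMIs only and 765 Y-linked UMIs only, while 19 had both and 426 neither. The *Xist* share among cells of the first 2 kinds was 25.4% in the members (22.8 to 28.2%), 32.5% in Cyp11b1-high (28.6 to 36.6%) and 46.6% in Wnt4-positive cells (42.1 to 51.2%). Endothelial cells gave 41.4% and chromaffin cells 29.0%. Seen the other way, the members were 39.2% of the 666 cortex cells with *Xist* (35.5 to 43.0%) and 54.9% of the 1394 cortex cells with Y-linked UMIs (52.2 to 57.5%). The share was lower for *Xist* cells in each of the 8 alternatives tried, by 15.4 to 22.0 points. The number of mice of each sex is not given in the sources used here, so a difference between sexes and one between single animals or their dissections cannot be told apart.

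Within the members the 2 kinds of cell had close depth (median 6005 and 6265 UMIs) and close *Akr1c18*, at 8897 CPM in *Xist* cells and 8237 in Y-linked cells. *Pik3c2g* differed, at 1309 against 471, a ratio of 2.78 (2.63 to 2.94), and at 2000 UMIs it was detected in 73.6% against 34.1% of cells. The 2 kinds of cell were spread differently over the sub-clusters, with an *Xist* share of 30.2% in sub-cluster 2, high in *Pik3c2g* and *Cyp11a1*, and 17.1% in sub-cluster 4, high in *Thrsp*, and the part of this in the differences given here was not tested. *Cyp11a1* was at 4347 against 2589 and *Spp1* at 312 against 140. *Cyp21a1* was at 1617 against 3304, *Thrsp* at 81.9 against 305, and *Srd5a2* at 74.8 against 286, a ratio of 0.262 (0.218 to 0.312). The cholesterol synthesis genes *Fdps* (ratio 0.769), *Hmgcs1* (0.785) and *Idi1* (0.725) were lower in *Xist* cells. The genes compared by sex were chosen after their levels in the groups had been seen.

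**Figure D5:**
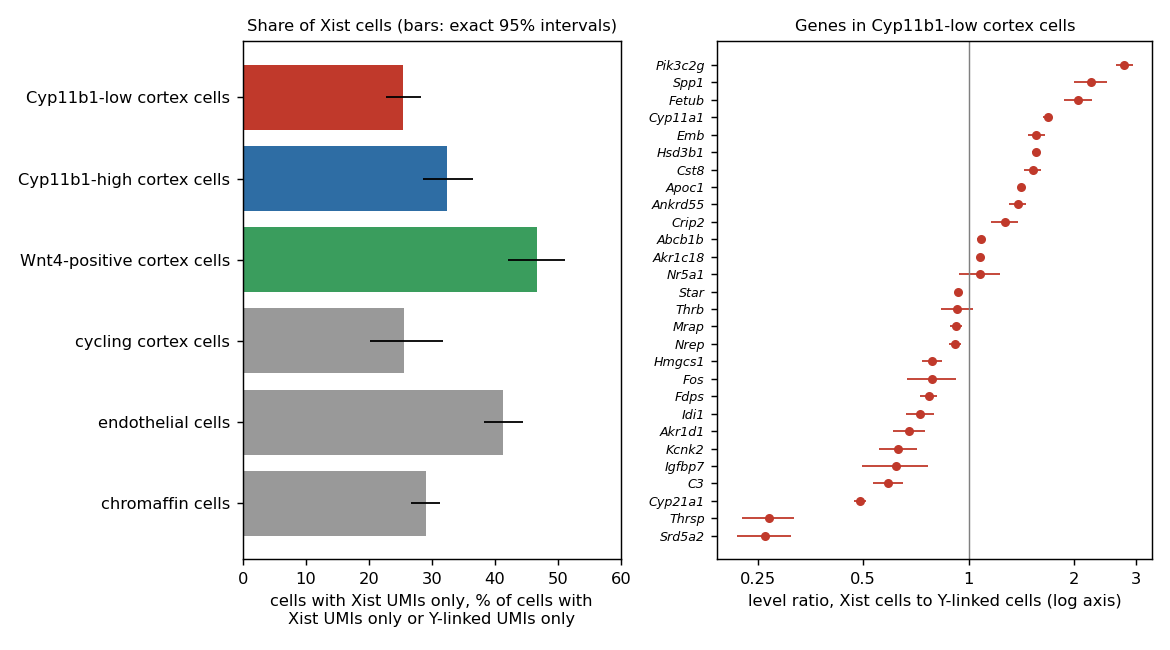
Left, share of cells with *Xist* UMIs only among cells with *Xist* or Y-linked UMIs only, in 6 groups (%, exact 95% intervals), and right, ratio of the level in *Xist* to that in Y-linked Cyp11b1-low cells for single genes (log axis, exact 95% intervals). *Pik3c2g* has the highest ratio shown at 2.78 and *Srd5a2* the lowest at 0.262, with *Akr1c18* close to 1.

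The rule left out cells with 3 or more of 6 cell cycle genes, and cells with fewer remained: in sub-cluster 3, *Mki67*, a marker of proliferation, had a UMI in 10.6% of cells and *Cenpf*, a kinetochore protein, in 11.0%. Of 1645 cells that met all other gates, 174 were left out in this way, or 10.6% (9.13 to 12.2%), against 5.09% (3.69 to 6.82%) for Cyp11b1-high and 8.55% (6.57 to 10.9%) for Wnt4-positive gates. At 2000 UMIs these shares were 6.60%, 2.78% and 4.17%. The 174 cells had 7930 CPM of *Akr1c18*, close to the 8431 of the members. Of 12 cell cycle genes in a separate list, 6 were measured against Cyp11b1-high cells, with 2 lower and none higher, and 7 against Wnt4-positive cells, with 3 lower and none higher. Their median log2 ratio was -0.21 and -0.80. Without the 150 members that carried endothelial or immune genes, 2 of 6 and 4 of 6 were lower, with medians of -0.52 and -1.22. *Ccnd2*, a D-type cyclin, was at 38.5 against 189 and 399, and *Ccnd1*, another, which entered only through the other groups, at 4.75 against 35.9 and 60.9.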

How the data were processed

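The 1 library came from pooled wild-type P15 adrenals and was sequenced after 10x 3′ capture. Per the submitters' processing notes the authors used Cell Ranger 4.0.0 and mm10. The deposited matrix holds raw UMI counts of 32285 genes in 11214 barcodes (51421499 UMIs, 500 to 33809 per barcode), of which 10139 passed the filter (median 3567). Groups were formed by the gates given above, counts were summed per group and divided by the group's total (CPM), and intervals were exact Poisson, conditional (ratios) and Clopper-Pearson (shares). With 1 sample no count model or p-value was used. Genes were measured from a mean of 10 CPM, and a fold of 2 was read after adding 10. Named genes were list members, the 12 with the highest and lowest such ratio in each comparison among genes found in 10% of the higher group's cells, 10 each way in the split by *Akr1c18*, and 5 leading each sub-cluster. Lists held 4 to 22 genes, and 21 of 22 steroid enzymes matched. Thinning drew 2000 UMIs per cell. Sub-clusters used Seurat 5.3.0 in R 4.3.3 (2000 variable genes, 10 components, resolution 0.4). Doublets were called with Scrublet in scanpy 1.11.5 (expected rate 8%) and left in. Python 3.11.15, numpy 2.4.6, scipy 1.17.1 and pandas 2.3.3 did the rest, and the steps were checked on simulated data. Members and lists were chosen with earlier results of these data known. Some genes counted in the lists are not reported here by name.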

Additional observations from a re-analysis of the deposited data

How the results depend on the processing

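With 1 library, depth and the gates set the limits, and no ratio or share in the main comparisons changed direction under the alternatives tried. Without the sub-clusters led by endothelial and immune genes, however, the median log2 ratio of the PI3-kinase list turned from -0.02 to 0.0027 against Cyp11b1-high cells, and that of the immune list cannot be compared, since 2 and 4 of its genes were then measured in place of 5. Of 81 values that answer a comparison, 33 moved past the limit set for them (their interval, or 1.5 times for a count of genes, which has no error) and 48 did not, and the cause was not tested. Within that limit, 1 CPM added in place of 10 gave 305 genes for 207, 531 for 377 and 696 for 471. The share of members among cells passing the filter (14.5%) was 17.5% with at least 4 of the 9 steroidogenic genes, 9.13% with at least 6, 18.0% under a stricter cell filter (from 1000 genes, up to 10% mitochondrial UMIs), 15.6% with gates set at 2000 UMIs, 17.1% by clusters, and 13.0% without the sub-clusters led by endothelial and immune genes, the 1 alternative chosen after seeing the data. The *Akr1c18* ratio to Cyp11b1-high cells (17.4) was 11.9 at a *Cyp11b1* limit of 0.015% and 21.2 at 0.06%, 18.8 with at least 6 genes, 9.27 under the stricter filter, 21.9 without doublets, 20.1 by clusters and 18.5 as a mean over cells. Genes higher than in Cyp11b1-high cells (207) numbered 71 with 50 CPM added, 125 with a minimum mean of 50 and 72 at 3-fold, and genes lower (262) numbered 93, 117 and 106, or 394 with 1 added. Against Wnt4-positive cells, 377 higher became 161 with 50 added and 231 at a minimum of 50, and 471 lower became 159 and 189, so that the excess of lower over higher genes turned at a minimum of 50 in both comparisons and with 50 added in the latter. The share of members with an *Akr1c18* UMI (90.1% at 2000 UMIs) was 83.3% at 1000, 93.6% with all UMIs and 83.1% when 2 UMIs were asked for. The members' share of cortex cells with *Xist* (39.2%) was 28.4% with at least 6 genes, 50.4% under the stricter filter and 33.5% when 2 UMIs were asked for, and that with Y-linked UMIs (54.9%) was 58.9% with at least 4 genes, 46.4% with 6 and 66.0% under the stricter filter. Of 22 values for single genes and the number of sub-clusters, 8 moved; the latter was 4 to 10 over resolutions. No paired analysis was possible because there was 1 sample.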
